A study of Mus musculus with 192 samples.

Results

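The cells described here are the 64 LSK cells with the brightest CD135 stain, divided by how brightly they stained for cKit. LSK cells are marrow cells without lineage markers that carry Sca-1 and cKit on their surface. The series holds 192 such cells in 2 library pools of 96. In each pool the 32 cells with the most CD135 signal were taken and split by cKit signal into 16 higher and 16 lower, which gives a cKit higher side of 32 cells and a cKit lower side of 32 cells. The signals that chose the cells are sorter readings in arbitrary units, and the RNA of the cells had no part in the choice.

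The marrow came from C57BL/6 mice, and the protocol gives an age of 8 to 16 weeks for all animals of the study. No transgene, deletion or drug treatment is given for these cells. Beads against cKit were used to enrich the marrow, so both sides lie within a population already selected for cKit. Single cells were sorted into 384-well plates with 7 label signals recorded for each. The labels name no animal, so the number of mice is not known, the cells of a side count as 1 sample, and no test was made. All intervals below are 95% intervals for counting error only.

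cKit is the receptor for stem cell factor and is carried by blood stem and progenitor cells. CD135 is the Flt3 receptor, which appears on multipotent progenitors as they gain lymphoid potential. Common lymphoid progenitors are classically described by CD127, the interleukin 7 receptor alpha chain, together with a lower level of cKit, and rearrangement of the immunoglobulin genes needs the Rag recombinase and is diversified by the Dntt gene product, terminal transferase. Mpo, myeloperoxidase, is a product of the granulocyte and monocyte path.

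The names of the cells were set against their RNA. Flt3, which encodes CD135, stood at 527 CPM (molecules of a gene per 1000000 gene molecules of the side) on the cKit higher side and 539 CPM on the cKit lower side. It stood at 307 CPM in the 64 cells with middle CD135 signal and 97.1 CPM in the 63 with the least. Kit had at least 1 molecule in 32 of 32 cells of the cKit higher side and 30 of 32 of the cKit lower side. Ly6a, which encodes Sca-1, was sparse, with 22 and 32 molecules in 12 and 11 cells. Pax5, a transcription factor of B cells, had no molecule in any of the 64 cells.

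The cut between the sides ran through a continuous range. In pool 1 the dimmest cell of the cKit higher side had a cKit signal of 5156 and the brightest of the lower side 5069, and in pool 2 these were 4809 and 4643. The CD135 limit was as close, with 1118 for the last cell inside and 1110 for the first outside in pool 1, and 1132.4 against 1132.1 in pool 2. Median cKit signals were 6665 and 3921 in pool 1 and 5372 and 3276 in pool 2. Both sides were dimmer for cKit than the middle and lower CD135 cells, whose medians over both pools were 6995 and 8311.

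**Figure D1:**
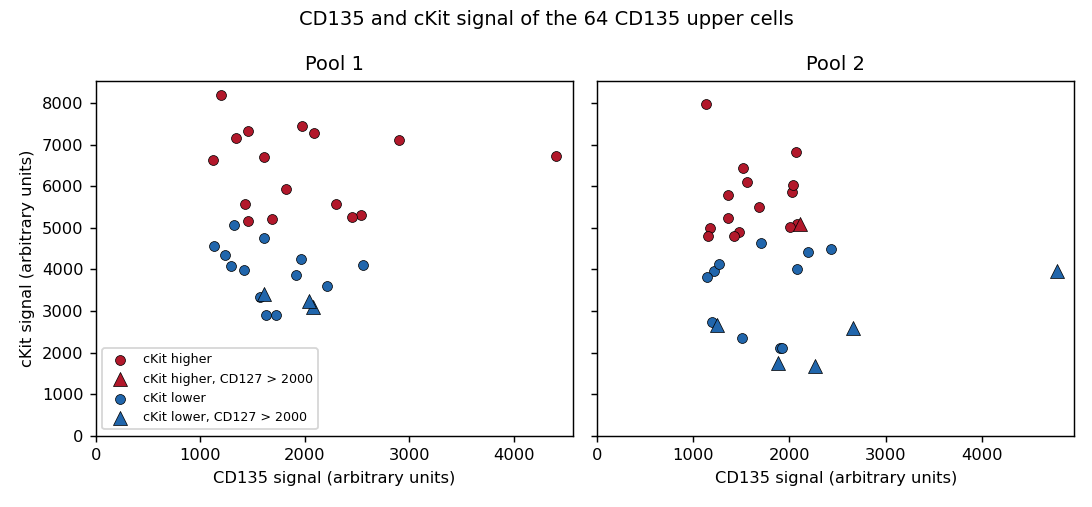
cKit signal (y axis) against CD135 signal (x axis, both in arbitrary units) of the 32 CD135 upper cells of each pool, 1 point per cell, red for the cKit higher and blue for the cKit lower side, with triangles for CD127 signal above 2000. All but 1 of the 9 triangles are on the cKit lower side.

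CD127 divided unevenly between the sides. A CD127 signal above 2000 was found in 1 cell of the cKit higher side and 8 of the lower side, 3 of them in pool 1 and 5 in pool 2. The brightest 7 of these 9 cells were all on the cKit lower side, with signals from 3105 to 13831, and the single cell of the higher side had 2819. Median CD127 signals were 642 and 590 in pool 1 and 495 and 799 in pool 2 (cKit higher, then lower), so the medians lay the same way as the counts in pool 2 only. The main results below are therefore given also without the 9 cells, which leaves 31 cells against 24.

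The promoters of 3 genes are shown. Kit encodes cKit, the signal that was split, and Il7r encodes CD127, which had no part in the split. Dntt, a lymphoid gene seen in nearly every cell, differed between the sides in both pools. Each promoter is the 250 bases before the RefSeq start in GRCm38.p6, 5′ to 3′ on the gene's strand. For Kit 2 RefSeq starts were listed and the first was used. The gene positions given below are from GENCODE and begin further upstream for Kit and Il7r. The Il7r window thus lies within the GENCODE gene, and the Kit window reaches into it. Kit lies on the plus strand with its window at chr5:75574737-75574986, Dntt on the plus strand at chr19:41029025-41029274, and Il7r on the minus strand at chr15:9529877-9530126.
Kit: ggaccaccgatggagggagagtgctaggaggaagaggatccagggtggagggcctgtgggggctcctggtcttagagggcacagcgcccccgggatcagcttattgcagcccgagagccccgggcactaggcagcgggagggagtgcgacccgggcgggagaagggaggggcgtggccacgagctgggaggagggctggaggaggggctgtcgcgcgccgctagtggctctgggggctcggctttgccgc
Dntt: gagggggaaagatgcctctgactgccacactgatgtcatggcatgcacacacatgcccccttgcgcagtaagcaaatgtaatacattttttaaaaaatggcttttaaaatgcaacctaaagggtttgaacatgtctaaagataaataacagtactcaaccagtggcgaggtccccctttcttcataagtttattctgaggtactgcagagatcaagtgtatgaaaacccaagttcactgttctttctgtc
Il7r: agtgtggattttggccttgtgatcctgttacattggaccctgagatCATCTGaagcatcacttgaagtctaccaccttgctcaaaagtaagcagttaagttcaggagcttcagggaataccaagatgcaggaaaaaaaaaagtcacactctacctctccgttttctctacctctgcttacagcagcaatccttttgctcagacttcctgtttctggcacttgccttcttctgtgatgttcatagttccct
Capitals mark the only match to CAGNTG or its other strand CANCTG, the E-box form bound by E proteins such as the Tcf3 product. It begins 204 bases before the RefSeq start of Il7r. That motif was found in 44.8% of 32536 promoter windows of the same length. The Ikaros core TGGGAA, or TTCCCA on the other strand, was in 21.6% of them and in none of these 3. No match overlapped another, and a match is a run of letters, not a measured site.

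Kit RNA was higher on the side with more cKit protein when all cells were summed. Kit (chr5:75574916-75656722, plus strand) had 51.1, 328 and 701 CPM in the lowest, median and highest cell of the cKit higher side and 0, 249 and 1109 CPM on the lower side, so the cells overlapped over most of the range. Summed over cells it was 359 CPM (interval 313 to 409, 221 molecules) against 250 CPM (211 to 294, 146 molecules). The log2 ratio of cKit higher over cKit lower was 0.52 (0.21 to 0.83), with 0.33 in pool 1 and 0.71 in pool 2. Without the CD127-high cells it was 0.23 (−0.10 to 0.56), with −0.08 in pool 1 and 0.57 in pool 2, so the ratio in pool 1 changed sign. Both sides were below the CD135 middle cells at 444 CPM and the CD135 lower cells at 511 CPM.

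Dntt RNA was lower on the side with more cKit protein. Dntt (chr19:41029275-41059525, plus strand) ranged over 0, 393 and 1363 CPM (lowest, median, highest cell) on the cKit higher side and over 0, 966 and 4559 CPM on the lower side. The sides overlapped, and nearly every cell had the transcript, 30 of 32 and 31 of 32. Summed over cells it was 574 CPM (516 to 637) against 1151 CPM (1066 to 1241), a log2 ratio of −1.0 (−1.19 to −0.81). The ratio was −1.13 in pool 1 and −0.91 in pool 2. It was −0.52 (−0.75 to −0.29) without the CD127-high cells, and −0.71 and −0.39 by pool, so the same direction remained at a smaller size. Among the lower side cells of pool 1 left there, 1 cell had 4559 CPM and the next 2464 CPM. The ratio without that cell was not computed, so the −0.71 of pool 1 may rest largely on it. Whether the direction in pool 1 would remain without both that cell and the CD127-high cells was not tested. With all cells but the 1 with the most Dntt molecules, a CD127-high cell of pool 1, the ratio was −0.86. Both sides lay above the CD135 middle cells at 163 CPM and the CD135 lower cells at 66.5 CPM.

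Ighm, the immunoglobulin mu constant region (chr12:113418558-113422730, minus strand), was seen in 32 and 31 cells. The lowest, median and highest cells had 68.2, 329 and 1113 CPM on the cKit higher side and 0, 561 and 1568 CPM on the lower. The log2 ratio was −0.42 (−0.66 to −0.18), with −0.71 in pool 1 and −0.10 in pool 2. It was −0.29 (−0.57 to −0.02) without the CD127-high cells. The direction was thus common to the pools, while nearly all of the size came from pool 1.

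Mpo (chr11:87793581-87804413, plus strand) gave no common direction. Its lowest, median and highest cells had 0, 60.1 and 659 CPM on the cKit higher side and 0, 0 and 891 CPM on the lower. It was seen in 19 and 15 cells, and in 43.3% and 37% after each cell was thinned to 10372 molecules, the depth used for all thinned shares, which left out 2 cells of the higher and 5 of the lower side. The log2 ratio was −0.18 (−0.67 to 0.32), made up of 0.64 in pool 1 and −1.59 in pool 2. Both sides, at 112 and 127 CPM, were below the CD135 middle cells at 219 and the CD135 lower cells at 368 CPM.

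**Figure D2:**
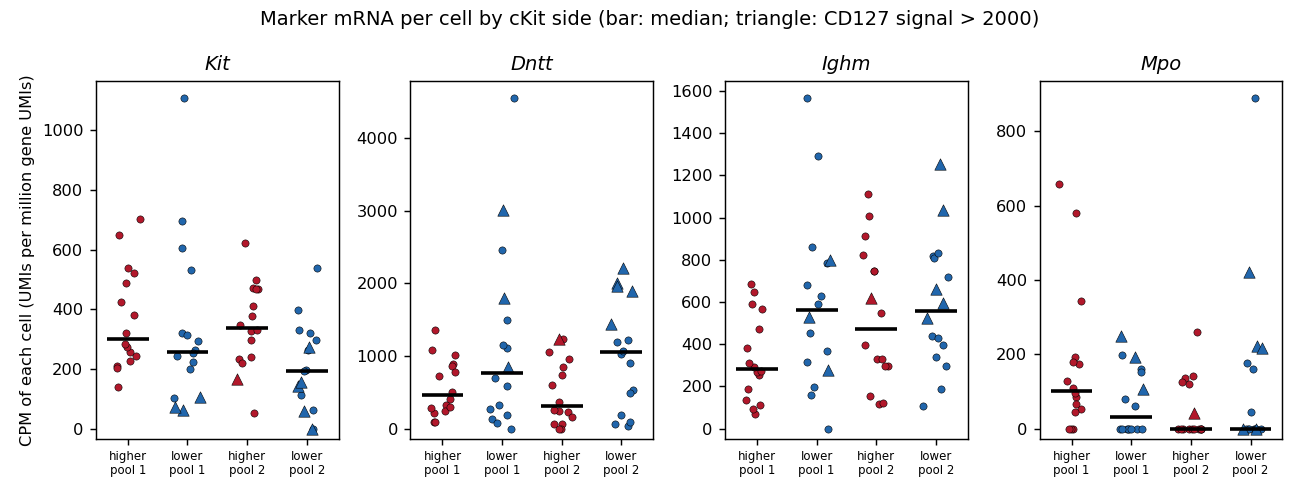
CPM of Kit, Dntt, Ighm and Mpo in each of the 64 cells by side and pool, 1 point per cell, with a bar at the median and triangles for CD127 signal above 2000. Dntt medians are 460 and 772 CPM in pool 1 and 312 and 1049 CPM in pool 2 (cKit higher, then lower), with cells of both sides over much of the same range.

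The graded cKit signal is the one that was split, so its ranks describe the same 32 cells of each pool and are not a separate check. Spearman's rho of the signal with Kit was 0.32 in pool 1 and 0.51 in pool 2, and with Dntt −0.24 and −0.51. For Dntt rho was thus weaker in pool 1, while the split gave the larger ratio there. With Ighm it was −0.46 and −0.21, and with Mpo 0.41 and −0.27. When only the 8 brightest and 8 dimmest cells for cKit of each pool were compared, the log2 ratio was 1.28 for Kit, −1.23 for Dntt and −0.77 for Ighm.

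The CD127-high cells carried the clearest lymphoid transcripts. Il7r (chr15:9505788-9530176, minus strand) had no molecule on the cKit higher side and 42 on the lower, in 7 cells, which is at least 14.8-fold lower against a floor of 3 molecules for the side. Of those 42, all but 1 were in CD127-high cells. Il7r molecules were found in 6 of the 9 CD127-high cells, and the 1 such cell of the cKit higher side had none. Rag1, a subunit of the recombinase, had 0 and 8 molecules, and all 8 were in 4 CD127-high cells. Rag2, its partner, had 8 and 10 molecules in 6 and 5 cells. Rag1 and Rag2 were added after their values were seen.

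The Dntt level of the CD127-high cells was also high. The 8 such cells of the cKit lower side ranged from 848 to 3017 CPM, and the 1 cell of the higher side had 1237 CPM. All but 1 of the 8 were above 966 CPM, the median of the lower side as a whole. Their cKit signal on the lower side was 1672 to 3959, and their forward scatter, a reading that grows with cell size, was 147000 to 181000.

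The other proteins on the labels did not go the same way in both pools in every case. CD16/32 signal, the Fc gamma receptors of myeloid cells, had medians of 610 and 279 (cKit higher, then lower) in pool 1 and 438 and 320 in pool 2. Without the CD127-high cells these were 610 and 419 in pool 1 and 441 and 482 in pool 2, so the direction turned in pool 2. With all cells, Sca-1 had 1981 and 1683 in pool 1 but 1202 and 2336 in pool 2. The genes of CD16/32 were near the limit of counting, with 8 and 2 molecules of Fcgr2b and 2 and 2 of Fcgr3. Itgam, which encodes CD11b, had 19 and 19, and Slamf1, which encodes CD150, 1 and 0.

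The sides also differed in depth and scatter, in opposite directions in the pools. Median gene molecules per cell were 22156 and 15192 in pool 1 and 16089 and 18593 in pool 2 (cKit higher, then lower), over a range of 7243 to 41199 in the 64 cells. Median forward scatter was 144000 and 131500 in pool 1 and 132500 and 148500 in pool 2. At the common depth of 10372 molecules the median number of genes seen was 3676 and 3677. The pools used the same 96 cell indices. The part of depth and scatter in the results below was not tested.

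Across genes, 7862 had at least 20 molecules over both sides. A gene was counted as past 2-fold where its ratio reached 2-fold over both pools and had the same direction in each. On this rule 272 genes (3.46%) were higher on the cKit higher side and 232 (2.95%) lower. Without the CD127-high cells 7201 genes were measured, and 327 (4.54%) were higher and 211 (2.93%) lower. Of the 272, 147 were also past the line without those cells, and of the 232, 115 were. In pool 1 alone, at 20 molecules in the pool, 4.97% of 5236 genes were higher and 4.68% lower, and in pool 2 alone 5.74% and 5.97% of 4876.

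The pools gave different genes as a rule. Of the 7862 genes, 49.4% had a ratio above 0 and 50.6% below it, and 47.7% had the same direction in both pools. Leaving out the CD127-high cells gave 48.1% above 0. Across the 4162 genes with at least 50 molecules, Pearson's r between the log2 ratios of the pools was −0.047, as a description over genes, which are not independent replicates. The genes named next were required to have the same direction in both pools, so that their agreement is a property of the choice.

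**Figure D3:**
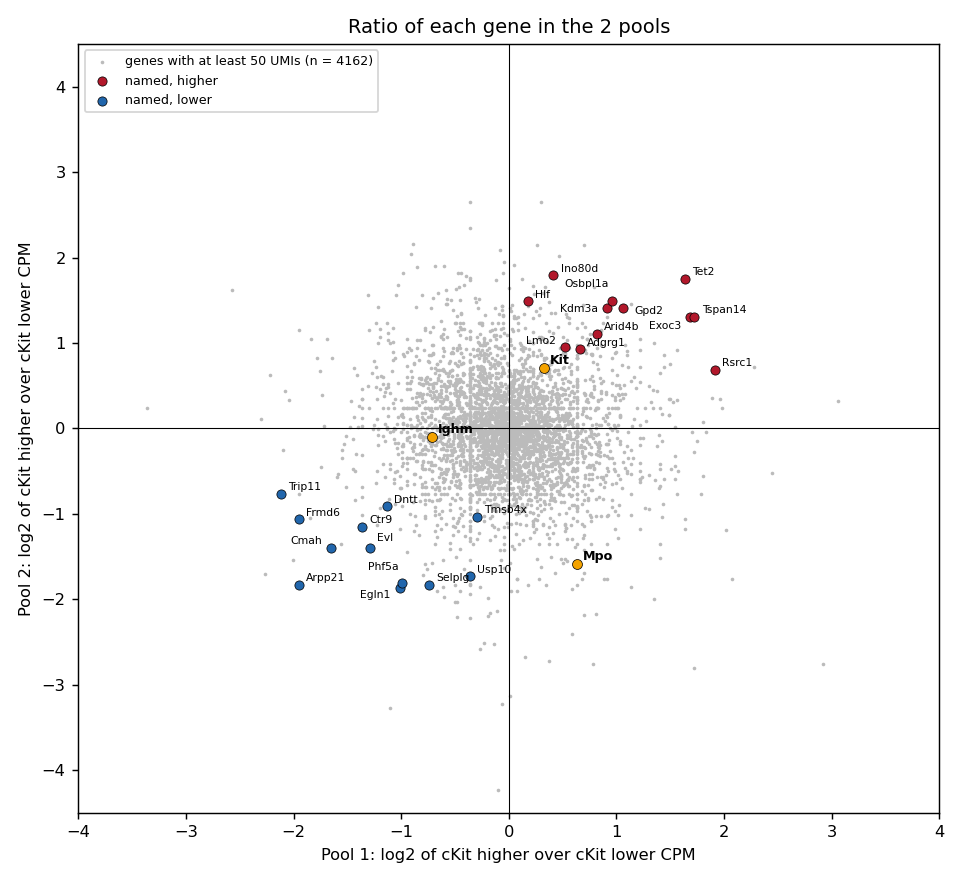
log2 ratio of cKit higher over cKit lower CPM in pool 1 (x axis) and pool 2 (y axis), 1 point per gene with at least 50 molecules (n = 4162), with the 12 named genes of each direction and Kit, Ighm and Mpo in colour. The cloud has no slope (r = −0.047), and Mpo lies on opposite sides of 0 in the 2 pools.

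The genes named as higher with more cKit were led in molecules by Lmo2, Hlf and Adgrg1. Each had at least 50 molecules, no cell with over 20% of them, and was among the 12 whose interval lay farthest from 0. Hlf, a transcription factor of blood stem cells, had 403 and 227 molecules and a log2 ratio of 0.75 (0.51 to 0.99), with 0.18 in pool 1 and 1.49 in pool 2. Lmo2, a partner of transcription factors in stem cells, had 412 and 236 and 0.73 (0.49 to 0.96). Adgrg1, an adhesion receptor also known as GPR56, had 343 and 186 and 0.81 (0.55 to 1.07). All 3 kept the direction without the CD127-high cells, at 0.36, 0.41 and 0.56.

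The other 9 were counted less well. Tet2, which oxidises methylated cytosine, had 40 and 12 molecules in 17 and 11 cells and a log2 ratio of 1.66 (0.70 to 2.73). Kdm3a, a histone demethylase, gave 1.17 (0.53 to 1.85), Ino80d, a subunit of a nucleosome remodeller, 1.05 (0.52 to 1.59), and Arid4b, of a histone deacetylase complex, 0.96 (0.43 to 1.5). Ino80d was seen in 30 cells of the cKit higher and 18 of the lower side, and in 80.0% and 33.3% after thinning. Tspan14, a tetraspanin, had 55 and 18 molecules in 23 and 12 cells and 1.54 (0.75 to 2.39). The rest were Exoc3 of the exocyst at 1.48, Rsrc1 at 1.37, the mitochondrial dehydrogenase Gpd2 at 1.22 and the lipid-binding Osbpl1a at 1.21.

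Named genes lower with more cKit were led by Arpp21, an RNA-binding protein. Arpp21 had 19 and 69 molecules in 12 and 21 cells and a log2 ratio of −1.94 (−2.75 to −1.19), with −1.95 in pool 1 and −1.83 in pool 2. It was −1.56 (−2.46 to −0.70) without the CD127-high cells. Dntt belonged to this group too. Cmah, which hydroxylates a sialic acid, had 18 and 50 molecules, at −1.55 (−2.41 to −0.75), and was rarer outside these cells, at 5.71 CPM in the CD135 middle and 1.57 CPM in the CD135 lower cells.

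Selplg, the ligand of the selectins, had 45 and 102 molecules and a log2 ratio of −1.26 (−1.80 to −0.74), and the same −1.26 without the CD127-high cells. Evl, which extends actin filaments, had 19 and 47 and −1.38 (−2.23 to −0.59). Tmsb4x, which binds actin monomers, had 395 and 630 and −0.75 (−0.93 to −0.57). For Tmsb4x a single cell of the lower side in pool 2 held 15.9% of the molecules, and without it the ratio was −0.36 (−0.55 to −0.16). The rest were Frmd6 at −1.50, the splicing factor Phf5a at −1.47, the golgin Trip11 at −1.40, the oxygen sensor Egln1 at −1.38, the transcription elongation factor Ctr9 at −1.34 and the deubiquitinase Usp10 at −1.30.

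The CD135 lower cells, which have most cKit, give a reference outside the split. For the 12 genes named as higher, their CPM lay between the sides in 9 and above both in 3. For the 12 named as lower it lay between the sides in 5 and below both in 7, among them Dntt, Arpp21, Cmah and Evl. More cells of the cKit higher side had a molecule in 11 of the 12 named as higher. This was so in 0 of the 12 named as lower. The genes were chosen by their ratio in these same cells, so this cell count largely follows from the choice and is no separate check.

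A split within CD135 neighbours gave smaller differences. When cells were paired by rank of CD135 within a pool and the brighter for cKit of each pair was put on the higher side, 18 of the 64 cells changed side and the median cKit signals moved to 5573 and 3987. Of the 24 named genes, which were chosen on the first split, 21 kept their direction, but only 2 were past 2-fold. Dntt had −0.73, Kit 0.095 and Ighm −0.13. The pairs put 3 CD127-high cells on the higher and 6 on the lower side. They thus changed the cKit gap and the CD127 balance together, and the part of each was not tested.

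Genes of Kit receptor signalling had a small positive median with all cells. Of 30 measured members of 36, 20 were above 0, against 49.4% of all genes, and the median log2 ratio was 0.23, against −0.01 over all genes. By pool the median was 0.26 and 0.11. Without the CD127-high cells it was 0.13 over both pools, but 0.011 in pool 1 with 13 of 25 above 0 and −0.048 in pool 2 with 10 of 20. Shc1, an adaptor of receptor kinases, was past 2-fold higher with 31 and 12 molecules, 1.29 (0.29 to 2.39), and Stat5a, a transcription factor downstream of cytokine receptors, with 19 and 5, 1.85 (0.38 to 3.63). No member was past 2-fold lower with all cells, against 2.95% of all genes lower and 3.46% higher. Without the CD127-high cells 3 of 29 measured members, Shc1, Stat5a and Plcg1, were past 2-fold higher, against 4.54% of all genes. Then 1 was past it lower, against 2.93%. This was Dok2, an adaptor that dampens signalling, at −1.14, and with all cells it had −0.86 (−1.63 to −0.11). Stat5b had −0.70 (−1.47 to 0.05) with all cells.

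Among lymphoid priming genes 3 were past 2-fold lower with more cKit. Of 21 measured of 26, 6 were above 0, against 49.4% of all genes. The median was −0.18, with −0.62 in pool 1 and −0.06 in pool 2. Past 2-fold lower were Dntt, Il7r and Irf8, a transcription factor of dendritic and monocytic cells with 25 and 83 molecules. None was past it higher, and over all genes 2.95% were past it lower and 3.46% higher. Flt3 had −0.03, Mef2c −0.19 and Ikzf1 −0.17. Satb1 had 0.21, made up of −0.33 in pool 1 and 0.85 in pool 2, and Bcl11a −0.16, made up of −0.67 and 0.34, so both went opposite ways in the pools. Among the cells without high CD127, 7 of 20 were above 0, against 48.1% of all genes, the median was −0.20 and none passed the line. By pool that median was −0.39 and 0.13, with 11 of 18 above 0 in pool 2, so the direction turned there. Irf8 was then −2.14 (−3.0 to −1.35) over both pools, with 0.29 in pool 1 and −2.65 in pool 2. Notch1, the receptor of the T cell path, had 72 and 103 molecules and −0.59 (−1.05 to −0.14). Dach1, a transcription factor named in the title of the series, had 23 and 19 molecules, with −0.70 in pool 1 and 1.65 in pool 2.

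Genes of more advanced lymphoid cells were scarce on both sides. No member of the B lineage list of 13 reached 20 molecules, and the list summed to 21.1 and 39.3 CPM. The list for T cells, innate lymphoid cells and natural killer cells summed to 172 and 193 CPM, with 2 of 15 members measured. Among 13 measured lymphoid transcription factors 4 were above 0, against 49.4% of all genes, with a median of −0.10. None was past 2-fold in both pools, against 3.46% of all genes higher and 2.95% lower. In the list of antigen receptor assembly 4 of 14 members were measured, and only Dntt passed the line.

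The stem cell list went the other way in pool 2 alone. Of 12 measured members of 22, 10 were above 0, against 49.4% of all genes. The median was 0.37, with −0.04 in pool 1 and 0.82 in pool 2. Meis1, a stem cell transcription factor, had 178 and 114 molecules and 0.57 (0.22 to 0.92), and Hlf is given above. Mllt3 was past 2-fold higher with 23 and 10 molecules and Ltb, which encodes lymphotoxin beta, lower with 10 and 24. Over all genes 3.46% were past it higher and 2.95% lower. When the CD127-high cells were left out, 6 of 12 were above 0, against 48.1% of all genes, and the median was −0.0010. By pool that median was −0.38 with 1 of 10 above 0 in pool 1 and 0.71 with 7 of 8 in pool 2. The pools thus went opposite ways. The Hox and stem transcription factors had 9 of 17 above 0 and a median of 0.07.

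Genes of granulocytes and monocytes had no common direction. Of 16 measured of 26, 7 were above 0, against 49.4% of all genes. The median was −0.16, with −0.05 and −0.35 by pool. Csf2rb, the shared beta chain of several cytokine receptors, was past 2-fold higher with 31 and 12 molecules. Past 2-fold lower were Ctsg, Csf1r, Irf8 and Ly86, and in each of them 1 cell held over 25% of the molecules. Over all genes 3.46% were past 2-fold higher and 2.95% lower. Prtn3, a granule protease, had 78 and 50 molecules (0.57, 0.04 to 1.11) and Plac8 253 and 359 (−0.58, −0.82 to −0.34). Prtn3 had −0.05 in pool 1 and 1.24 in pool 2, and Plac8 −0.59 in each. Without the CD127-high cells Prtn3 was 0.22 (−0.33 to 0.78) and Plac8 −0.35 (−0.63 to −0.08). Among the members with no molecule in the 64 cells were S100a8, Ms4a3 and F13a1. Other granule genes were seen, with 69 and 74 molecules of Mpo and 4 and 2 of Elane.

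**Figure D4:**
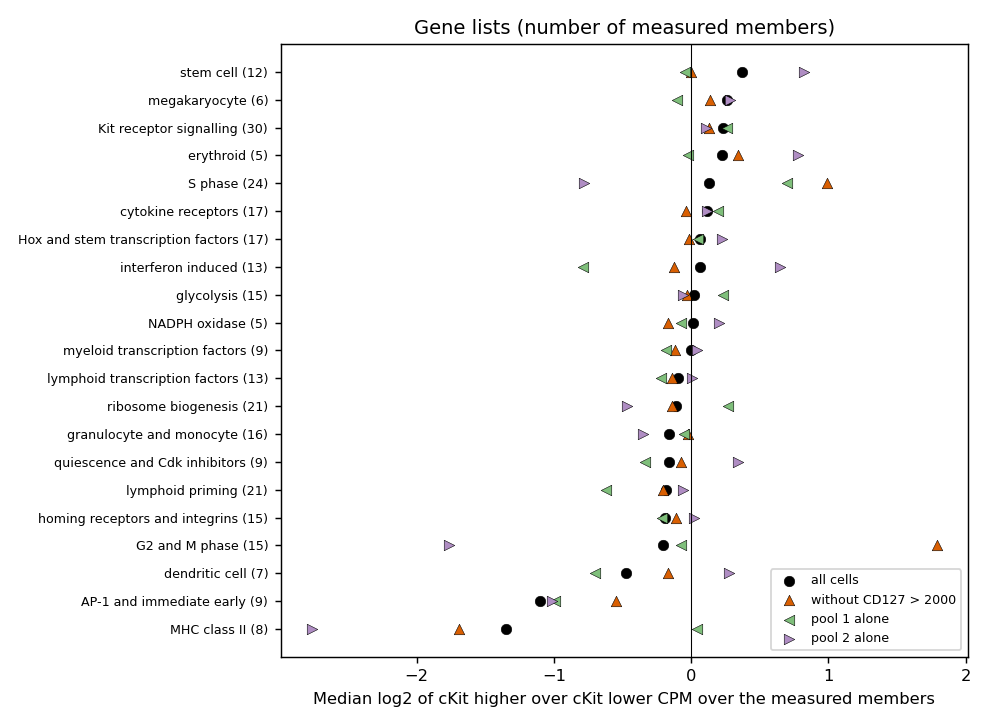
Median log2 ratio of cKit higher over cKit lower of the measured members of each gene list (number of members in brackets), for all cells, without cells with CD127 signal above 2000, and in each pool alone. G2 and M phase moves from −0.20 to 1.79 when the CD127-high cells are left out, and MHC class II from 0.042 in pool 1 to −2.76 in pool 2.

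MHC class II genes, which present antigen, rested largely on 1 cell. Of 8 measured of 10, 3 were above 0, against 49.4% of all genes. The median was −1.35, but it was 0.04 in pool 1 and −2.76 in pool 2. A single cell of the cKit lower side in pool 2 held 47% of the molecules of the list and 67.4% of those of Cd74, the class II chaperone. It had 26569 CPM of class II genes, against 429 CPM in the other cells of its side, a CD16/32 signal of 2178 and a CD127 signal of 597. Without it the median was −0.058. Cd74 then went from −3.39 to −1.48 (−2.28 to −0.73), H2-Eb1 from −3.20 to −0.83 (−2.05 to 0.33), H2-Ab1 from −2.29 to −0.12 (−1.02 to 0.78) and H2-Aa from −1.96 to 1.09 (0.11 to 2.15). This cell also held 25.9% of the Irf8 molecules, and Irf8 without it was −1.25 (−2.0 to −0.55).

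AP-1 and immediate early genes, which respond fast to stimulation and to handling, were mostly lower with more cKit when all cells were summed. Of 9 measured of 15, none was above 0, against 49.4% of all genes, 6 were past 2-fold lower, against 2.95% of all genes, and the median was −1.10, with −0.99 in pool 1 and −1.01 in pool 2. The other 3 were each above 0 in 1 pool, with Ier2 at 0.28 and Zfp36 at 0.18 in pool 1 and Ier3 at 0.24 in pool 2. Jun had 24 and 91 molecules and −2.0 (−2.71 to −1.34). Of the members 6 had over 20% of their molecules in 1 cell, and the median of the others was −0.62. When the CD127-high cells were left out 2 of 8 were above 0 and the median was −0.55, and under the pairs of CD135 neighbours it was 0.36.

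Cell cycle genes depended on the CD127-high cells and on the pool. For S phase, 15 of 24 measured members were above 0, against 49.4% of all genes, and the median was 0.13. However, 20 of 21 were above 0 in pool 1 and 2 of 17 in pool 2, with medians of 0.70 and −0.78. Depth and forward scatter moved with these medians, both higher on the cKit higher side in pool 1 and on the cKit lower side in pool 2, and their part was not tested. Without the CD127-high cells all 22 measured members were above 0, against 48.1% of all genes, and 6 were past 2-fold higher, against 4.54%. The median was 0.99, with 1.99 in pool 1 and −0.52 in pool 2. Pcna, the replication clamp, went from 0.17 (−0.09 to 0.43) to 0.84 (0.50 to 1.20).

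For G2 and M phase 5 of 15 measured members were above 0, against 49.4% of all genes, with a median of −0.20. Without the CD127-high cells only 9 were measured, 7 were above 0, against 48.1%, and the median was 1.79. By pool that median was 2.07 in pool 1 with 6 of 7 above 0 and −0.08 in pool 2 with 2 of 4. Mki67, a marker of cycling cells, had 61 and 105 molecules, −0.86 (−1.34 to −0.39), and 3.79 (2.17 to 6.11) without them. Top2a, which untangles DNA, went from −0.60 to 1.79. A pair of CD127-high cells of the cKit lower side held 280 and 233 molecules of the list, 6796 and 6581 CPM. The cell with most on the higher side had 7577 CPM, was in pool 1 and was not CD127-high. It thus stayed in the ratios without the CD127-high cells.

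Counted by cell, the sides were equal in sum and opposite by pool. Cells with over 1000 CPM of G2 and M phase genes, a line chosen after the values were seen, were 8 of 32 on each side. They were 4 of 16 against 1 of 16 in pool 1 and 4 of 16 against 7 of 16 in pool 2 (cKit higher, then lower). On the lower side 5 of the 8 CD127-high cells were above it and 3 of the other 24. Leaving out the CD127-high cells, the count was 8 of 31 (25.8%, exact interval 11.9% to 44.6%) against 3 of 24. By pool it was 4 of 16 against 0 of 13 and 4 of 15 against 3 of 11, so that the difference lay in pool 1.

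**Figure D5:**
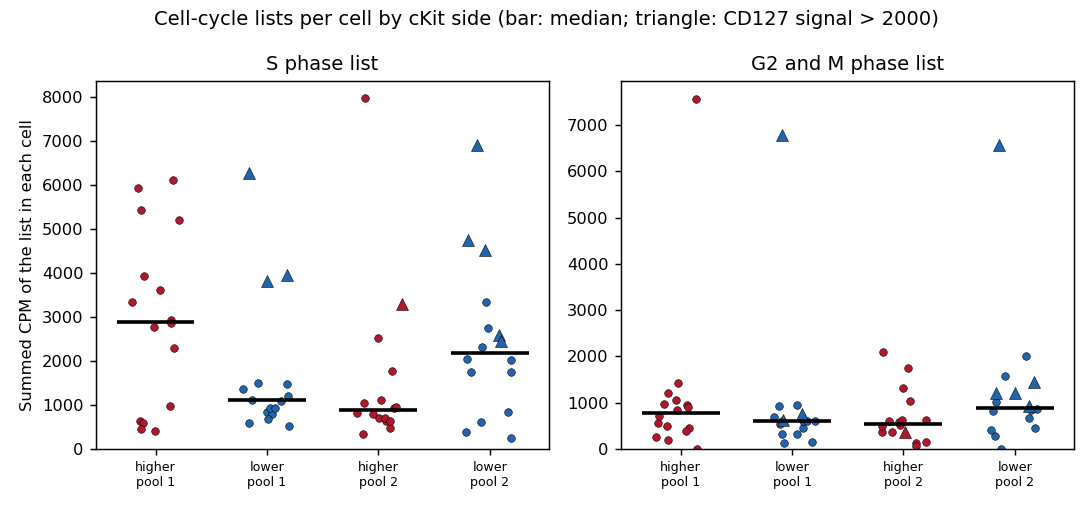
Summed CPM of the S phase list (left) and the G2 and M phase list (right) in each of the 64 cells by side and pool, 1 point per cell, with a bar at the median and triangles for CD127 signal above 2000. S phase medians per cell are 2891 and 1097 CPM in pool 1 and 874 and 2179 CPM in pool 2 (cKit higher, then lower).

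The remaining lists are given by their medians, against −0.01 over all genes. Of all genes 49.4% were above 0, 3.46% past 2-fold higher and 2.95% lower. Dendritic cell genes had 1 of 7 above 0 and a median of −0.48, with −0.70 in pool 1 and 0.27 in pool 2, and Irf8 and Cox6a2 were past 2-fold lower. Glycolysis had a median of 0.02 over 15 members and NADPH oxidase 0.01 over 5. Ribosome biogenesis had −0.11 over 21 members, with 0.27 in pool 1 and −0.47 in pool 2, and interferon induced genes 0.06 over 13, with −0.79 and 0.65. Homing receptors and integrins had 3 of 15 above 0 and a median of −0.19, and Selplg alone was past the line. By pool that median was −0.21 with 2 of 13 above 0 and 0.02 with 8 of 14. Of the 17 cytokine receptors measured, 10 were above 0, with Csf2rb and Ifnar1 past it higher and Il7r and Csf1r lower. Megakaryocyte genes had a median of 0.26 over 6 members, with −0.10 in pool 1 and 0.28 in pool 2. Erythroid genes had 0.22 over 5, with −0.02 and 0.78.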

How the data were processed

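Single cells were read with an adapted CEL-seq2 protocol, per the labels, which primes on the poly(A) tail and tags each molecule with 6 random bases (UMI). The deposited values are counts of UMIs for every gene and cell, which the authors left unnormalized. The aligner and counter were not given in the sources used here. The build named in the submitters' processing notes is GRCh38, a human build, while the gene identifiers are mouse Ensembl ones, so the build used is not known. Symbols and gene positions were matched by identifier to GENCODE M21 (GRCm38). The counts held 20764 genes, and those without a symbol (0.473% of UMIs) and 71 spike-ins were left out of what is named. No column of sample values was left unused (0).

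Cells were ranked by label signal in each pool. A cell under 20% of its pool's median was then dropped, which took 1 of the 192 and none of the 64. Doublets were not called, as cells were sorted singly. UMIs were summed over a side and divided by its gene UMIs. Ratios carry exact conditional binomial intervals, sums exact Poisson intervals and shares Clopper-Pearson intervals, at 95%. A side at 0 was set to a floor of 3 UMIs over the side. List medians in a pool use members with 20 UMIs there. A gene with over 20% of its UMIs in 1 cell was called held by that cell.

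Named genes had at least 50 UMIs, the same sign in each pool, under 20% in every cell, and no predicted, pseudogene or ribosomal protein symbol. The 12 per direction whose interval lay farthest from 0 were taken, with the marker and surface protein genes and up to 4 members with most UMIs of each list. Other list members were named after their values were seen. The members and the 27 lists were chosen with earlier results of these data known. Promoters came from RefSeq (GRCm38.p6), and the 3 genes sought all matched. Scripts used Python 3.11.15, numpy 2.4.6, scipy 1.17.1, pandas 2.3.3 and matplotlib 3.10.9, and the ratio was tested on simulated counts.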

Additional observations from a re-analysis of the deposited data

How the results depend on the processing

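No paired analysis was possible because the labels tie no cell of one side to a cell of the other and no test was made. The pairs of CD135 neighbours are another way to split the cells, not pairs from the design. The 24 named genes had the same direction in each pool by their choice. They kept it without the CD127-high cells, with cells weighted equally, with median ratio scaling, without the 20 most abundant genes, with no cell filter, with 24 or 40 cells per pool, with the extreme cells, and without the cell with the most class II or the most of the gene. The exception was the CD135 neighbour pairs, where 21 of 24 did: Gpd2 turned to −0.54, Phf5a to 0.013 and Tet2 to −0.086, and outside the 24 Irf8, Jun, Jund and the AP-1 median also turned, to 0.071, 0.60, 0.92 and 0.36. The cause was not tested.

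Counts past 2-fold followed the molecule minimum: 542 higher and 448 lower from 10, and 32 and 53 from 50. The lymphoid priming median was −0.62 in pool 1. The stem cell median was −0.0010 without the CD127-high cells, −0.042 in pool 1, 0.82 in pool 2 and 0.024 with the pairs. S phase was 0.99 without the CD127-high cells, 0.70 and −0.78 by pool and −0.085 with 24 cells per pool. G2 and M phase was 1.79 without the CD127-high cells, −1.76 in pool 2, 0.15 with cells weighted equally and 1.53 with the pairs. MHC class II was 0.042 in pool 1 and 0.15 without members held by single cells. The alternatives that leave out members held by single cells, the cell with the most molecules of a list, or the cell with the most class II molecules were chosen after seeing the data.

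With 1 sample per side the intervals do not cover differences between animals. Sequencing depth went with the split in opposite ways in the pools, and its part was not tested. Genes near 20 molecules have intervals wider than the 2-fold line.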
